A study of Arabidopsis thaliana with 12 samples.

Results

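The xyloglucan endotransglucosylase/hydrolase (XTH) family of Arabidopsis thaliana, XTH1 to XTH33, was followed in root RNA-seq data after treatment with cellotriose (CT), a short chain of β-1,4-linked glucose released from cellulose. Members were taken by gene identifier. Of the 33 named genes, 30 were found among 23106 genes with values, and XTH1, XTH3 and XTH6 were not analysed here. XTH3, the member known to join cellulose to cello-oligosaccharides, therefore has no value below. The 4 groups were HO + CT, HO + water, SWT + CT and SWT + water. HO seedlings were homozygous for the T-DNA insertion cork1-2 in CORK1, which encodes a receptor kinase with leucine-rich repeats and a malectin domain, and SWT seedlings were wild-type segregants of the same cross. Both descended from a cross of this 1 insertion line to a wild type carrying the calcium reporter aequorin. Seedlings were 10 days old when they were moved to fresh medium for 1 day. Roots then received 1 mL of 10 µM CT or of water for 1 h. Each group had 3 libraries, and a library pooled the roots of 16 seedlings from 2 dishes. Nothing in the labels says that the libraries of a group came from separate sowings, so p-values measure the spread between these samples, which may be technical.

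XTH enzymes act on xyloglucan, the hemicellulose that coats and tethers cellulose microfibrils in the primary wall. Most cleave a xyloglucan chain and rejoin the new end to another chain, an activity called endotransglucosylation, and some release the cleaved end with water as hydrolases. They are known for their work in walls that are growing, in roots especially in the elongation zone and in root hairs. The family is divided by sequence into Group I (XTH1 to XTH11), Group II (XTH12 to XTH26), Group IIIA (XTH31 and XTH32), which holds the hydrolase type, and Group IIIB (XTH27 to XTH30 and XTH33).

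Values were available as a mean normalised read count per gene over the 12 libraries and as log2 fold changes with standard errors (SE) from 1 fit by the authors. No value of a single library was available, so the depth of each library is unknown. Group means were recovered from these values, and the spread between libraries of a group is given as the standard deviation (SD) that the fit assigns to it. For the 26 members with a mean of at least 50 this modelled SD had a median of 17.4% of the group mean, with a range of 10.5% to 58.6%. CORK1 itself was at 255 ± 35.2 in HO + water, against 1413 ± 178 in SWT + water (modelled SD, n = 3 each), a log2 difference of −2.47 (adjusted p = 2.93e-52, deposited DESeq2 test). The 13 markers of root hair, endodermis, stele, meristem and root cap all had values, and their summed mean count was 18828 in HO + CT, 19513 in HO + water, 18028 in SWT + CT and 17150 in SWT + water. None of the 13 passed an adjusted p of 0.05 by the deposited DESeq2 test or the derived z tests in any of the 5 comparisons. Of 6 shoot markers listed, GL1 was not among the genes with values. The other 5, markers of green tissue, were not at 0 in these roots, and they are set beside the results they move with.

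Of the 5 promoters given here, 4 belong to the members whose transcript levels were lower with CT than with water in SWT roots, XTH31, XTH8, XTH13 and XTH17. XTH20 is added as the member of highest positive log2 fold change among those with a mean of at least 50. All were chosen after their values were seen. Each is the 250 bases before the annotated gene start in RefSeq assembly TAIR10.1, 5′ to 3′ on the strand of the gene: chr3:16448845-16449094 for XTH31 (minus strand), chr1:3880392-3880641 for XTH8 (minus strand), chr5:23304096-23304345 for XTH13 (minus strand), chr1:24256804-24257053 for XTH17 (plus strand) and chr5:19481647-19481896 for XTH20 (plus strand). No other annotated gene overlaps these windows. Capitals mark, on either strand, the W-box core TTGAC bound by WRKY factors, the brassinosteroid element CGTGNG and the rapid stress element CGCGTT.
XTH31: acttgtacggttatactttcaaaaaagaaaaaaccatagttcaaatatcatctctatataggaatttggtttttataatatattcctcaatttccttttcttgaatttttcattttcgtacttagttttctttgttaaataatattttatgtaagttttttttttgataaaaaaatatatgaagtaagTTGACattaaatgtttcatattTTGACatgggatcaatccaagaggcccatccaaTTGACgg
XTH8: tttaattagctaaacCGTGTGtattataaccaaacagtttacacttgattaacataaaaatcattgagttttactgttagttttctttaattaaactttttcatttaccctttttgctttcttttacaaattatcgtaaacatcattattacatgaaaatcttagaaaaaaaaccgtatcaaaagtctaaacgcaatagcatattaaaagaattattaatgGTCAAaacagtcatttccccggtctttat
XTH13: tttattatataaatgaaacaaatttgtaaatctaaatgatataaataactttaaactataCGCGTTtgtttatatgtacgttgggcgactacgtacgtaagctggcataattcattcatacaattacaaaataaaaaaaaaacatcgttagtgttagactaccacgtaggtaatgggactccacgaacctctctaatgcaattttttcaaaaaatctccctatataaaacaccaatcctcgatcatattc
XTH17: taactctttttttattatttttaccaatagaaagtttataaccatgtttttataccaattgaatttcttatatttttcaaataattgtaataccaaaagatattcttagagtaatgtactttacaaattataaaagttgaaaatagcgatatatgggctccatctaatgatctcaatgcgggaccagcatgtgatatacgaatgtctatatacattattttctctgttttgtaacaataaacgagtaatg
XTH20: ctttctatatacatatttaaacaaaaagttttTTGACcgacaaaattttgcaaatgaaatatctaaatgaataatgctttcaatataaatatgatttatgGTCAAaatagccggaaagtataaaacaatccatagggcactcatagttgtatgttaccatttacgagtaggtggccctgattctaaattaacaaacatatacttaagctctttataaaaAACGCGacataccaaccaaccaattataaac

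The W-box core occurred at 3 places in the XTH31 window, at 62, 40 and 7 bases before the gene start, counted from the first base of each match on the gene's strand. XTH8 held it at 29 bases before the start, beside a CGTGNG match at 235, and XTH20 held it at 218 and 150 beside CGCGTT at 31. XTH13 held only CGCGTT, at 190 bases before the start, and XTH17 held none of these letters in this window. Across the family, 14 of 30 members (46.7%) held the W-box core, against 44.9% of 27443 promoters of the same length. The G-box CACGTG was in 0 of 30 members, against 6.49% of all promoters, CGTGNG in 4 of 30 (13.3%, against 12.5%) and CGCGTT in 3 of 30 (10%, against 2.59%), those being XTH13, XTH18 and XTH20. CACGTG and CGTGNG can share bases. A match is a description of the letters only.

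The family differed widely in level. Per kb of exon, the 5 highest members were XTH14, XTH31, XTH18, XTH30 and XTH15, with mean counts over all groups of 5659, 2274, 1539, 1367 and 1353 per kb, and the same 5 led by mean count without regard to length. The lowest was XTH25 at 1.26 per kb. The other 24 members lay between 4.79 (XTH29) and 1233 per kb (XTH17), and only XTH2, XTH11, XTH25 and XTH29 had a mean count under 50. Of the 29 pairs of neighbours in this order, 24 had means within 1 modelled SD on each side. The 5 that did not overlap were XTH14 over XTH31, XTH31 over XTH18, XTH21 over XTH33, XTH10 over XTH11 and XTH11 over XTH2.

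**Figure D1:**
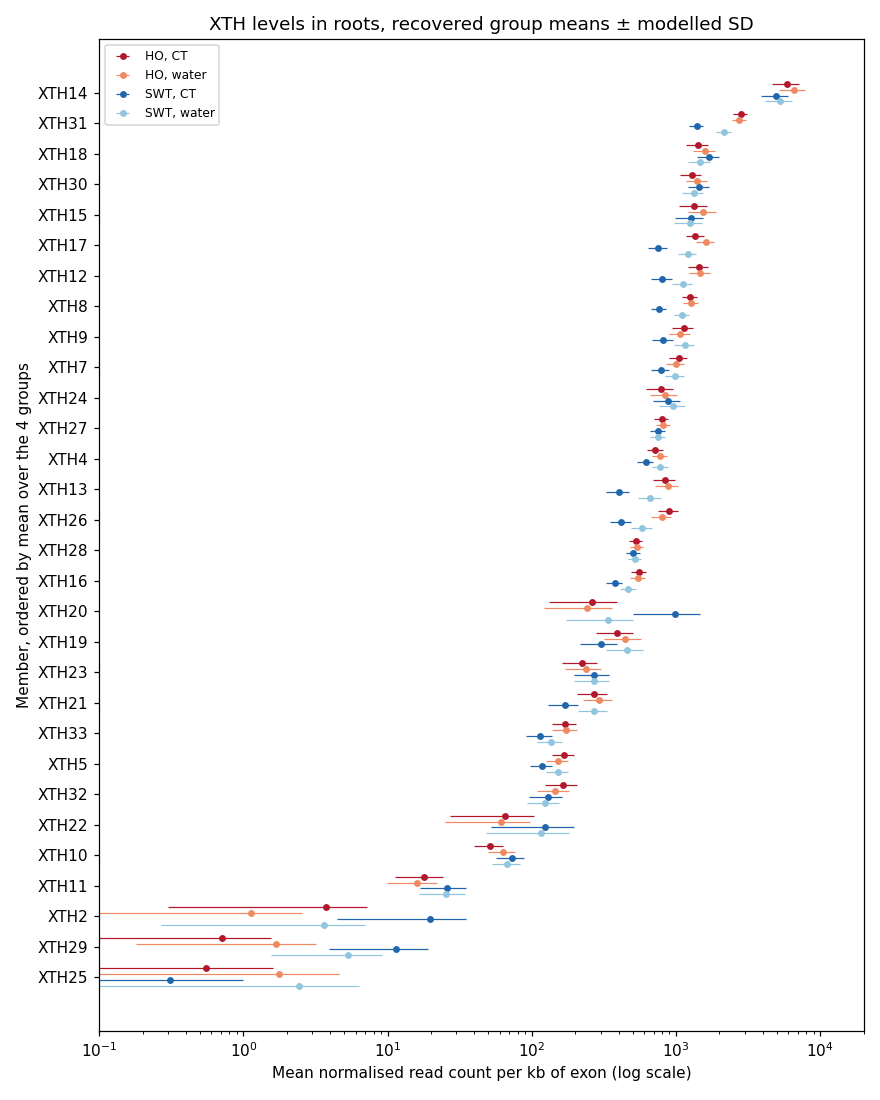
Mean normalised read count per kb of exon (log axis) of the 30 XTH members, ordered by their mean, with HO + CT, HO + water, SWT + CT and SWT + water as separate points and the modelled SD as bars (n = 3 libraries a group; a bar that would pass below the axis is clipped). XTH14 stands highest in every group, and the SWT + CT point of XTH31 lies to the left of its other 3 points.

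XTH14 (AT4G25820, chr4:13130291-13131860, plus strand, 3 exon blocks), a root and root hair member, was at 6887 ± 1440 in HO + CT, 7640 ± 1597 in HO + water, 5772 ± 1207 in SWT + CT and 6116 ± 1279 in SWT + water (mean normalised count ± modelled SD, n = 3 each). These 4 ranges overlapped, and no comparison of XTH14 passed its test. XTH18 (AT4G30280, chr4:14825757-14827211, minus strand), a root member of the XTH17 to XTH20 group, was at 1790 ± 311 in HO + CT, 2014 ± 350 in HO + water, 2130 ± 370 in SWT + CT and 1844 ± 321 in SWT + water. In both genes the ranges of the groups overlapped. XTH30 (AT1G32170, chr1:11575320-11578030, plus strand), of Group IIIB, was at 1799 ± 298 in HO + CT, 1973 ± 327 in HO + water, 2022 ± 335 in SWT + CT and 1861 ± 309 in SWT + water. XTH15 (AT4G14130, chr4:8137020-8138392, minus strand), known from shade responses as XTR7, was at 1622 ± 356 in HO + CT, 1873 ± 411 in HO + water, 1534 ± 337 in SWT + CT and 1503 ± 330 in SWT + water. In the comparisons made, XTH18, XTH30 and XTH15 also passed no test, and their groups overlapped. The count of XTH15 is uncertain, since another gene overlaps it on the opposite strand and the sources used here do not say whether reads were counted by strand.

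The first comparison asked which members responded to CT in SWT roots. XTH31, XTH8, XTH13 and XTH17 were lower with CT than with water, each at 60.5% to 69.9% of its level in water, and no member rose. Thus 4 of the 29 members with an adjusted p fell (13.8%), against 3.23% of 21759 genes, and 0 rose, against 8.3% of those genes. The test was the deposited DESeq2 Wald test at a Benjamini-Hochberg adjusted p below 0.05. Genes of any mean count are in these shares, and no share is given for genes as deep as the members. None of the 4 reached the fold criterion of the study, a change of at least 2.51-fold in either direction, so 0 members were called by it, against 2.83% of all genes. At an unadjusted p below 0.05 stood 12 of 30 members (40%, against 20.8% of all genes), 10 with negative and 2 with positive log2 fold changes, the positive ones being XTH2 and XTH20. Over the 26 members with a mean of at least 50, the median log2 fold change was −0.28, against −0.018 over all genes of such means, and 17 of the 26 were negative (52.7% of all such genes were). When the test statistics were divided by their robust spread over all genes, XTH31 alone of the 4 passed (adjusted p = 0.0371, DESeq2 statistics). That spread was 1.45 in SWT, against 0.772 in HO, and genes that responded to CT are included in it. In bulk roots, fewer cells of a type and less RNA per cell cannot be told apart.

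XTH31 (AT3G44990, chr3:16446935-16448844, minus strand, 4 exon blocks) is a Group IIIA member of the hydrolase type that has been linked to the response of root walls to aluminium. Its mean normalised count was 1939 ± 222 in SWT + CT, against 2989 ± 340 in SWT + water (modelled SD, n = 3 each). The 2 ranges of 1 SD did not overlap. The log2 fold change was −0.62 ± 0.13 (SE; adjusted p = 9.01e-05, deposited DESeq2 test), which puts the CT level at 64.9% of the water level. The other Group IIIA member, XTH32, shares 64.6% of its coding bases with XTH31 and had a log2 fold change of 0.05.

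XTH17 (AT1G65310, chr1:24257054-24258506, plus strand, 3 exon blocks) is a Group II member expressed in the root elongation zone. It was at 934 ± 137 in SWT + CT, against 1504 ± 218 in SWT + water, a log2 fold change of −0.69 ± 0.17 (SE; adjusted p = 0.00114 by the deposited DESeq2 test). Its closest relatives did not pass. XTH18, XTH19 and XTH20 share 85.6%, 80.8% and 79.6% of their coding bases with XTH17, and their log2 fold changes were 0.21, −0.59 and 1.54. No 75-base stretch of the exons of these 4 genes recurred elsewhere on the chromosomes.

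XTH20 (AT5G48070, chr5:19481897-19483527, plus strand, 3 exon blocks), a vascular member of the same group, was at 1391 ± 685 in SWT + CT, against 477 ± 236 in SWT + water. Its modelled spread was wide and its log2 fold change of 1.54 had a 95% interval of 0.40 to 2.68. With an adjusted p of 0.0633 in the deposited DESeq2 test it did not pass. XTH20 was 1 of the 2 members of a mean of at least 50 whose 95% interval reached beyond the fold criterion in SWT, and the other was XTH22. The estimate of XTH20 itself, 2.92-fold, was also beyond that criterion, while that of XTH22 was not.

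XTH8 (AT1G11545, chr1:3878495-3880391, minus strand, 4 exon blocks), a Group I member, was at 930 ± 113 in SWT + CT, against 1330 ± 160 in SWT + water, a log2 fold change of −0.52 ± 0.14 (SE; adjusted p = 0.00417 by the deposited DESeq2 test). XTH13 (AT5G57540, chr5:23302787-23304095, minus strand, 3 exon blocks), a root member of Group II, was at 446 ± 81.5 in SWT + CT, against 737 ± 133 in SWT + water. Its log2 fold change was −0.72 ± 0.21 (SE; adjusted p = 0.00919 by the same test), the most negative value among the members with a mean of at least 50. XTH13 stands in a tandem cluster on chromosome 5 with XTH12, XTH25 and XTH22. XTH12 (AT5G57530, chr5:23300321-23301689, minus strand), its nearest relative with 89.4% identical coding bases, had a log2 fold change of −0.48 and an adjusted p of 0.0939 (DESeq2), and did not pass.

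The same tandem cluster holds XTH22 (AT5G57560, chr5:23307006-23308680, minus strand, 2 exon blocks), known as the touch gene TCH4. XTH22 was at 197 ± 114 in SWT + CT, against 183 ± 106 in SWT + water, and its log2 fold change of 0.10 had a 95% interval of −1.24 to 1.45, too wide to leave out a change of the size of the fold criterion. The last of the cluster, XTH25, was the lowest member and stood at about 1 count over the group in SWT + CT, against 9 in SWT + water. In these rounded counts that is 9.00 times as many in water, with an exact 95% interval of 1.25 to 395 for counting error only. With the spread between libraries included, its log2 fold change was −2.97 with a 95% interval of −7.26 to 1.31. The unadjusted p was 0.174 (deposited DESeq2 test), and XTH25 had no adjusted p in SWT. The neighbours XTH23 and XTH14 lie 363 bases apart on chromosome 4, and their log2 fold changes in SWT were 0.00052 and −0.08. Thus tandem neighbours did not all pass or all fail together, but differences between neighbours were not tested.

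**Figure D2:**
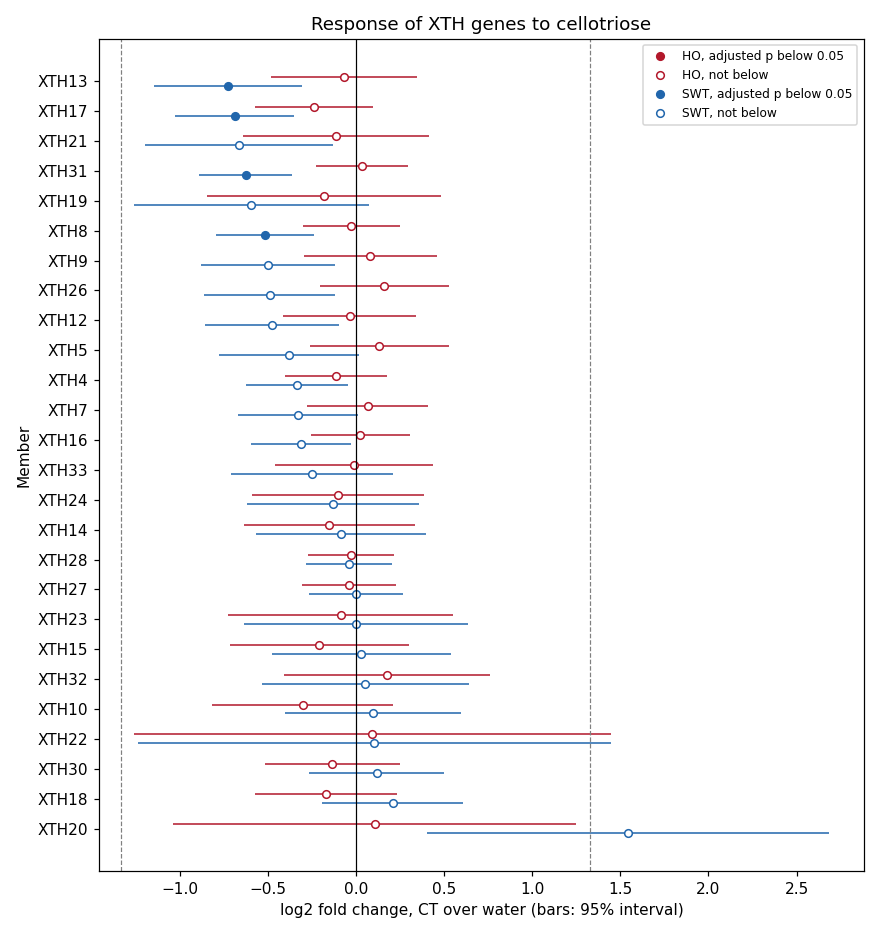
Log2 fold change of CT over water (x axis) in HO and in SWT for the 26 XTH members with a mean count of at least 50, with 95% intervals as bars, filled points where the adjusted p was below 0.05, and dashed lines at the 2.51-fold criterion. Only 4 SWT points (XTH13, XTH17, XTH31 and XTH8) are filled, all to the left of 0, and no HO point is.

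By subfamily, the members that fell in SWT were 1 of 8 in Group I (XTH8), 2 of the 14 with an adjusted p in Group II (XTH13 and XTH17), 1 of 2 in Group IIIA (XTH31) and 0 of 5 in Group IIIB. The median log2 fold changes were −0.33, −0.31, −0.29 and 6.87e-05 in that order, over all members with values. In Group IIIB, XTH27 and XTH28 had log2 fold changes of 0.000069 and −0.04, and the 5 members of the group ranged from −0.25 to 1.11.

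In HO roots the same comparison gave 0 members past an adjusted p of 0.05 (deposited DESeq2 test), against 0.00866% of 23103 genes. By the unadjusted p of that test, 0 of 30 members stood below 0.05, against 1.85% of all genes (428 genes). XTH31 was at 3918 ± 445 in HO + CT, against 3826 ± 434 in HO + water. XTH8 was at 1513 ± 181 in HO + CT, against 1540 ± 184 in HO + water, and XTH13 at 931 ± 167 in HO + CT, against 975 ± 175 in HO + water. In each of these the ranges of 1 SD overlapped almost whole. XTH17 was at 1697 ± 245 in HO + CT, against 2002 ± 289 in HO + water, a log2 fold change of −0.24 ± 0.17 (SE). Over the 26 members with a mean of at least 50, log2 fold changes lay between −0.30 and 0.18 and the median was −0.038. For 25 of the 26, the 95% interval lay inside the fold criterion, XTH22 being the exception.

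Whether a response differed between the genotypes was tested as the HO log2 fold change minus the SWT one. XTH31 passed, with a difference of 0.66 ± 0.19 (SE; adjusted p = 0.0179, z test with Benjamini-Hochberg adjustment over 23103 genes). With statistics divided by their robust spread over all genes its adjusted p was 0.0734. It was the only one of 30 members that passed (1 higher, against 0.645% of all genes, and 0 lower, against 3.31%). At an unadjusted p below 0.05 stood 5 of 30 members (16.7%, against 11.9% of all genes), all with positive differences: XTH8, XTH9, XTH13, XTH26 and XTH31. XTH13 had a difference of similar size, 0.66 ± 0.30 (adjusted p = 0.310, z test), with a 95% interval of 0.07 to 1.25. For XTH8 the difference was 0.49 ± 0.20 (adjusted p = 0.201) and for XTH17 0.45 ± 0.24 (adjusted p = 0.476, z test). Thus of the 4 members that fell in SWT, a difference from HO was shown for XTH31 only. For XTH20 the difference was −1.44 ± 0.82 (adjusted p = 0.532, z test), with a 95% interval of −3.05 to 0.18.

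In water, 0 members differed between HO and SWT at an adjusted p of 0.05 (deposited DESeq2 test), against 0.19% of 23103 genes. At an unadjusted p below 0.05 stood 4 of 30 members (13.3%, against 4.71% of all genes), XTH12, XTH17, XTH26 and XTH31, all higher in HO, with log2 differences of 0.40, 0.41, 0.45 and 0.36. The 26 members with a mean of at least 50 had a median of 0.12, against 0.0090 over all genes of such means.

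With CT, 7 of 30 members (23.3%) were higher in HO than in SWT, namely XTH8, XTH12, XTH13, XTH16, XTH17, XTH26 and XTH31. Another 2 (6.67%) were lower, XTH20 and XTH29. Of all 23103 genes 4.28% were higher and 9% were lower in this derived comparison (z test, Benjamini-Hochberg adjusted p below 0.05). By the fold criterion 2 members (6.67%) were lower, against 2.99% of all genes. No member was higher by it, and the share of all genes higher by it is not given here. This comparison uses the same SWT + CT libraries as the SWT response, so the 2 results are not separate evidence. Its log2 difference is the sum of the difference in water and the difference of the responses.

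XTH31 averaged 3918 ± 445 in HO + CT, against 1939 ± 222 in SWT + CT, a log2 difference of 1.01 ± 0.13 (SE; adjusted p = 3.44e-12, z test), or 202% of the SWT level. Of that sum, 0.36 was the difference in water and 0.66 the difference of the responses. XTH26 (AT4G28850, chr4:14244290-14246037, plus strand, 4 exon blocks), a member expressed in roots and root hairs, averaged 1052 ± 167 in HO + CT, against 492 ± 79.7 in SWT + CT. The HO level was 214% of the SWT level (95% interval of the log2 difference 0.73 to 1.47, adjusted p = 2.6e-07, z test). The log2 differences that add up to it were 0.45 in water and 0.65 in the responses, neither of which passed by itself. In all 7 members that were higher in HO with CT, XTH31 and XTH26 among them, the ranges of 1 SD with CT did not overlap.

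XTH13 averaged 931 ± 167 in HO + CT, against 446 ± 81.5 in SWT + CT (log2 difference 1.06, adjusted p = 1.87e-05, z test), and its tandem relative XTH12 averaged 1652 ± 270 in HO + CT, against 920 ± 152 in SWT + CT (0.84, adjusted p = 0.000266, z test). XTH17 averaged 1697 ± 245 in HO + CT, against 934 ± 137 in SWT + CT (0.86, adjusted p = 1.45e-05, z test). XTH8 averaged 1513 ± 181 in HO + CT, against 930 ± 113 in SWT + CT (0.70, adjusted p = 2.08e-05, z test). For these 4 members the SWT + CT group was the lowest of the 4 groups. XTH16 (AT3G23730, chr3:8550037-8551403, plus strand, 3 exon blocks), of Group II, averaged 673 ± 81.9 in HO + CT, against 458 ± 57.0 in SWT + CT, a log2 difference of 0.56 ± 0.15 (SE; adjusted p = 0.00192, z test), the smallest of the 7.

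The 2 members lower in HO with CT rested on less certain values. XTH20 averaged 366 ± 181 in HO + CT, against 1391 ± 685 in SWT + CT, a log2 difference of −1.93 ± 0.58 (SE; adjusted p = 0.0106, z test), and its ranges of 1 SD did not overlap. XTH29 (AT4G18990, chr4:10401777-10404393, minus strand, 4 exon blocks), a Group IIIB member, had about 3 counts over the group in HO + CT, against 48 in SWT + CT, 16.0 times as many in SWT + CT with an exact 95% interval of 5.16 to 80.3 for counting error only. Its adjusted p was 0.00458 (z test). With variances added as if the 3 comparisons were independent, of the 9 members only XTH26 and XTH31 passed. With statistics divided by their robust spread, 1.52 in this comparison, XTH8, XTH13, XTH17, XTH26 and XTH31 passed.

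**Figure D3:**
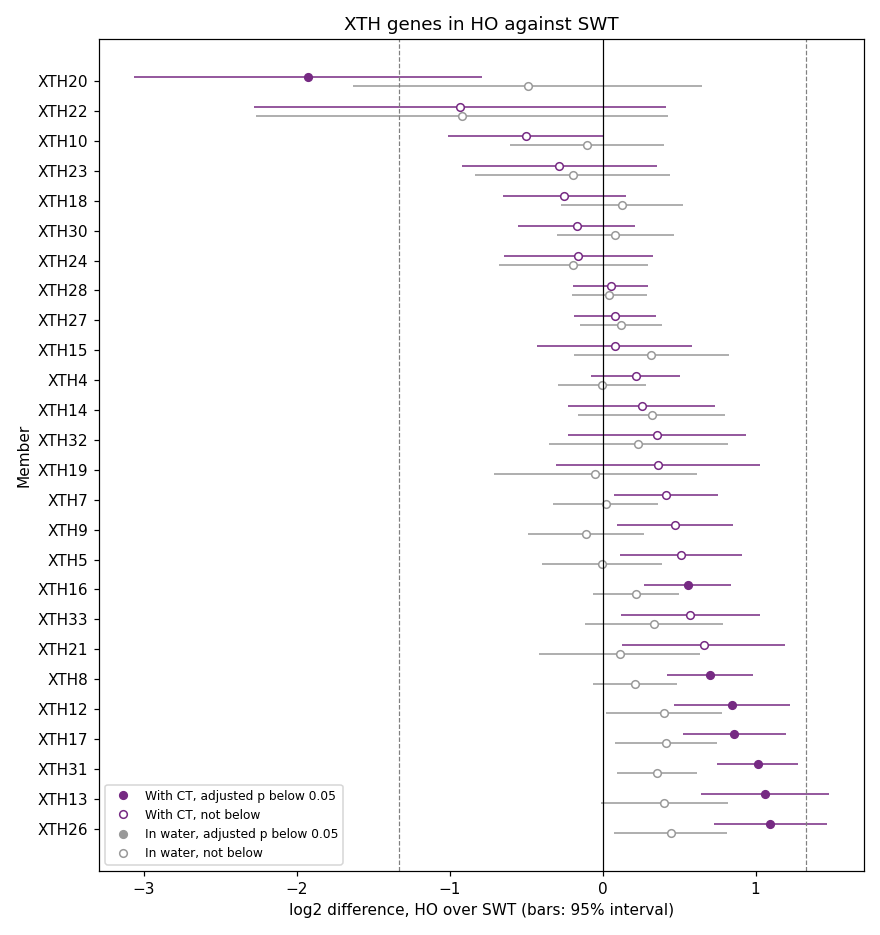
Log2 difference of HO over SWT (x axis) with CT and in water for the 26 XTH members with a mean count of at least 50, with 95% intervals as bars, filled points where the adjusted p was below 0.05, and dashed lines at the 2.51-fold criterion. With CT, 7 filled points lie to the right of 0 and XTH20 to the left, and no point in water is filled.

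Other genes of xyloglucan metabolism were set beside all genes at an adjusted p below 0.05. With CT in SWT, 8.3% of all genes were higher and 3.23% lower. In HO against SWT with CT, 4.28% were higher and 9% lower. The shares for the other comparisons are those given above. Of 17 genes of xyloglucan synthesis, which make the glucan backbone and add its xylose, galactose, fucose and acetyl groups, 0 passed with CT in SWT (deposited DESeq2 test, 3 at an unadjusted p below 0.05), and their log2 fold changes lay between −0.49 and 0.24 with a median of −0.066. None passed in HO (0 at an unadjusted p below 0.05) or in the difference of the responses (0 at an unadjusted p below 0.05), and none in water, with 1 at an unadjusted p below 0.05. With CT, 2 of the 17 (11.8%) were higher in HO than in SWT and 0 were lower. They were the xylosyltransferases XXT2 (log2 difference 0.22, adjusted p = 0.0151) and XXT5 (0.27, adjusted p = 0.0262, z test). A gene on the opposite strand overlaps XXT5, so its count is uncertain. Of the 5 genes that trim xyloglucan in the wall, 0 passed in SWT (0 at an unadjusted p below 0.05), with a median of −0.13. XYL1, an alpha-xylosidase, was the only one of the 5 (20%) higher in HO with CT (0.31, adjusted p = 0.0187, z test).

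Of the 3 touch genes named together with XTH22, TCH3 and TCH1 rose with CT in SWT (66.7%, against 8.3% of all genes). TCH3, which encodes a calmodulin-like calcium sensor, averaged 4032 ± 1780 in SWT + CT, against 541 ± 240 in SWT + water, and rose by 2.90 ± 0.52 on the log2 scale (SE; adjusted p = 1.07e-06, deposited DESeq2 test). In HO its log2 fold change was −0.25, and the difference of the responses was −3.15 (adjusted p = 0.00121, z test). TCH1, a calmodulin gene, rose in SWT by 0.54 (adjusted p = 0.0367, DESeq2), and TCH2, another calmodulin-like gene, had −0.33 (adjusted p = 0.412, DESeq2). The counts of TCH1, TCH2 and TCH3 are uncertain in the same way as that of XTH15, since genes on the opposite strand overlap all 3.

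Taken as a sum, though not member by member, XTH counts were lowest in SWT + CT. Members that were instead highest there included XTH2, XTH10, XTH11, XTH18, XTH20, XTH22, XTH29 and XTH30. Of these, XTH20 was at 1391 in SWT + CT, against 477 in SWT + water. The shoot markers also had their lowest summed count in SWT + CT. The 5 analysed (LHCB1.1, LHCB1.3, RBCS1A, RBCS3B and LHCB2.1) had a summed mean count of 5577 in HO + CT, 5792 in HO + water, 3275 in SWT + CT and 5218 in SWT + water, and none of them was at 0. The sum over the XTH members was 33281 in HO + CT, 34972 in HO + water, 27147 in SWT + CT and 30600 in SWT + water. All 5 shoot markers had negative log2 fold changes with CT in SWT, with a median of −0.78. LHCB2.1, a light-harvesting protein gene, passed (−0.86, adjusted p = 0.0407, DESeq2). That is 1 of 5 (20%), against 3.23% of all genes that were lower. With CT, 3 of the 5 (60%, against 4.28% of all genes) were higher in HO than in SWT by the z test. They were LHCB1.3, RBCS1A and LHCB2.1, of which LHCB1.3 overlaps a gene on the opposite strand. The part of the shoot markers in the XTH results was not tested.

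**Figure D4:**
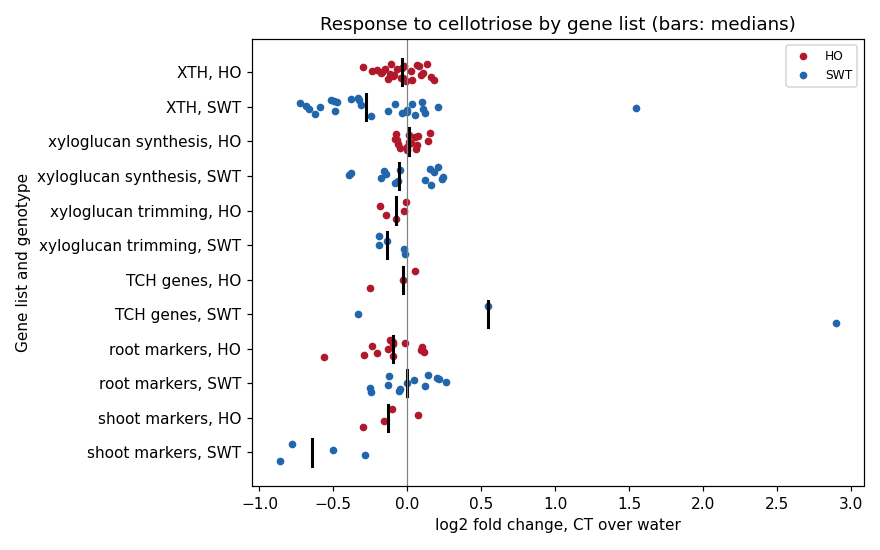
Log2 fold change of CT over water (x axis) for the genes of each list with a mean count of at least 50, in HO and SWT, with 1 point a gene and black bars at the medians. The XTH points of SWT lie mostly to the left of 0 (median −0.28), those of HO lie around it (median −0.038), and the root markers of SWT lie on both sides of 0.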

How the data were processed

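Poly-A RNA of 12 root libraries was sequenced. The authors aligned reads to TAIR10 with STAR 2.7.10a, counted them with featureCounts 2.0.1 and fitted 4 groups with DESeq2 1.34.0. They deposited 3 tables of results (the CT response of each genotype, and HO against SWT in water) with 0 columns of values per library. The deposited signal is the mean normalised read count over all libraries. The authors also deposited a log2 fold change and its log2 SE, the Wald statistic as a score, and a p-value with a Benjamini-Hochberg adjusted p-value. These comparison columns were the only values for a test and were used as the main test. Of 23106 genes, 3 had no p-value, and 1344 more had no adjusted p in SWT.

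Group means, modelled SDs, the difference of the responses and HO versus SWT with CT were computed from these columns. The variance of the comparison with CT adds those of both responses and subtracts the one in water, as a shared fit implies, and 95% intervals assume a normal error. The deposited directions gave the smallest median gap between the dispersions of the tables (0.000615, against 0.0132 for the next of 8 sign combinations, over 3361 genes). A group with 1 to 3 counts is given as rounded counts with an exact interval. Members and lists were chosen with earlier results of these data known. Values are given for members with an adjusted p below 0.05 in any comparison, the 5 highest per kb and XTH22, and for up to 3 genes a list plus TCH2 and TCH3. XTH3 was also to be named but was not analysed here. XTH19, XTH23, XTH25, XTH27, XTH28 and XTH32 are outside this rule and were chosen after their values were seen, as relatives, neighbours or Group IIIB members. Alternatives covered the threshold, the genes tested, the scaling and the variance. Promoters, positions and coding identity are from RefSeq TAIR10.1, with Python 3.11.15, pandas 2.3.3, scipy 1.17.1 and Biopython 1.88.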

Additional observations from a re-analysis of the deposited data

Results flagged for a closer look

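XTH31 stood out because its response to CT differed between the genotypes. The response in HO minus that in SWT was 0.66 on the log2 scale (adjusted p = 0.0179, z test with Benjamini-Hochberg adjustment), from a log2 fold change of 0.03 in HO and −0.62 in SWT. The adjusted p lay between 0.0140 and 0.0734 over the alternatives that test against no change.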

How the results depend on the processing

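No paired analysis was possible because the tables hold no values per library, so a replicate block and leaving out each library were not run. Apart from centring on the median, the alternatives kept each log2 value and changed only how it was tested or called. They could therefore not reverse a direction. For CT versus water in SWT the count of members by the fold criterion was 0, and 4 at any fold. Those 4 became 1 (XTH31, adjusted p = 0.0371) when statistics were divided by their robust spread over all genes, where XTH17, XTH8 and XTH13 had adjusted p = 0.111, 0.191 and 0.267 (DESeq2 statistics). For the difference of the responses the count by the fold criterion was 0, and 1 at any fold. That 1 (XTH31) became 0 at an adjusted p below 0.01 and 0 with the robust spread (adjusted p = 0.0734, z test). For HO versus SWT with CT, 2 members by the fold criterion became 9 at any fold, 1 at an adjusted p below 0.01 (XTH29), 0 tested against the fold criterion itself, 1 among genes with a mean of at least 50 (XTH20), 0 with the robust spread and 0 with independent variances. The 9 at any fold became 5 with the robust spread (XTH8, XTH13, XTH17, XTH26 and XTH31) and 2 with independent variances (XTH26 and XTH31). The counts for HO and for water were 0 under each alternative. Centring on the median over genes with a mean of at least 50 shifted values by at most 0.018 and changed no count by over 1.5 times. The causes were not tested, except that independent variances are larger by construction.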
